A study of Mus musculus with 9 samples.

Results

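The interferon response genes described here are 45 mouse genes that interferons are known to induce, chosen by name and matched to the gene symbols of a table of read counts. All 45 were found among its 24394 gene rows. The table holds bulk RNA sequencing of 3 cell populations sorted from brain, namely T cells, microglia and innate lymphoid cells of group 2 (ILC2). Every mouse was a C57BL/6 animal of 20 to 22 months, and every mouse had received the cytokine interleukin-33 (IL-33) at 400 ng a day for 7 days. The groups therefore share strain, age and treatment and differ in cell type: 3 libraries of microglia, 3 of T cells and 2 of ILC2 were used, out of 9 labelled samples, 3 of each population. There was no untreated brain and no young brain among them, so all values compare cell types within treated aged brain, and neither an effect of IL-33 nor one of age was computed. The sorting markers are not named, and the labels do not say whether libraries came from separate mice, so the p-values measure the spread between libraries, which may be technical.

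Interferons are secreted proteins that warn cells of infection. Type I interferons act through the receptor pair Ifnar1 and Ifnar2 and assemble a complex that contains Stat2 and Irf9 and binds a DNA element called ISRE. Interferon gamma, the type II interferon made mainly by T cells and natural killer cells, acts through Ifngr1 and Ifngr2 and works through an element called GAS. The genes induced in this way block virus entry, degrade or sense foreign RNA, attach the ubiquitin-like protein Isg15 to other proteins and attack the vacuoles of intracellular microbes. In the brain, microglia are known to respond strongly to type I interferon, and interferon-responsive microglia have been described in aged mice.

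The libraries held 8376609 to 13585956 reads counted on genes and 11390 to 12620 detected genes. Levels are given in CPM, counts per 1000000 on library sizes scaled by the trimmed mean of M values (TMM), and 3 counts corresponded to 0.207 to 0.326 CPM. The populations carried their defining markers. The sum of 6 microglia markers was 30600 to 46730 CPM in microglia, 485 to 1188 CPM in T cells and 687 to 723 CPM in ILC2. Cd3e was at 1437 to 2241 CPM in T cells and at 22.4 and 2.46 CPM in ILC2. Of the other listed T cell markers, Cd3g was at 559 and 791 CPM in ILC2, against 1655 to 2217 CPM in T cells. The rest were at most 24.1 CPM in ILC2. Nmur1, a receptor typical of ILC2, was at 376 and 393 CPM in ILC2 and at 0 in microglia. Gata3, also listed for ILC2, was at 1108 and 647 CPM in ILC2 and at 121 to 226 CPM in T cells. Other cell types were also represented. The 4 of 5 listed neutrophil markers that were in the table summed to 56395, 10345 and 69956 CPM in microglia libraries 1, 2 and 3, against 55.4 to 326 CPM in T cells and 69.8 to 91.2 CPM in ILC2. All 4 had counts in every microglia library. S100a8, S100a9 and Camp were lowest in microglia library 2 and Retnlg in library 3. The 5 basophil markers summed to 394 and 1222 CPM in the ILC2 libraries, with none at 0, against at most 226 CPM elsewhere. Prss34, Mcpt8 and Fcer1a were higher in both ILC2 libraries than in all others. Cpa3 (22.0 and 117 CPM in ILC2, 36.4 CPM in microglia library 1) and Ms4a2 (1.05 and 9.99 CPM, against 11.6 CPM in microglia library 3) overlapped the other populations. The sample titles carry numbers shared across populations, but the columns of the table carry none, so library numbers here follow the order of the columns and pair nothing.

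T cells had the highest mean level for 30 of the 44 interferon response genes with any count, microglia for 12 and ILC2 for Ly6e and Mx1. The Mx1 means of ILC2 and microglia were almost the same, at 2.83 and 2.80 CPM, and ILC2 library 2 was at 0. ILC2 had the lowest mean for 25, microglia for 15 and T cells for 4. The remaining gene, Oas2, had no count in any library and could not be tested. In T cells 16 members had a mean above 100 CPM and 5 stayed under 10 CPM. For microglia these numbers were 10 and 8, and for ILC2 they were 6 and 14. Per kilobase of exon, the highest level in microglia and in ILC2 was that of Ly6e, at 895 and 2014 CPM per kb, and in T cells that of Ifi27l2a, at 1880 CPM per kb. The member genes together amounted to 5537 to 6608 CPM in microglia, 8133 to 8502 CPM in T cells and 7715 and 10929 CPM in ILC2. Ly6e was the largest part of each total. With Ly6e set aside, the sums were 2350 to 2815 CPM in microglia, 4169 to 4396 CPM in T cells and 1546 to 1857 CPM in ILC2. ILC2 thus lay above microglia with Ly6e and below microglia without it. In bulk RNA a smaller number of expressing cells and less RNA per cell cannot be told apart.

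**Figure D1:**
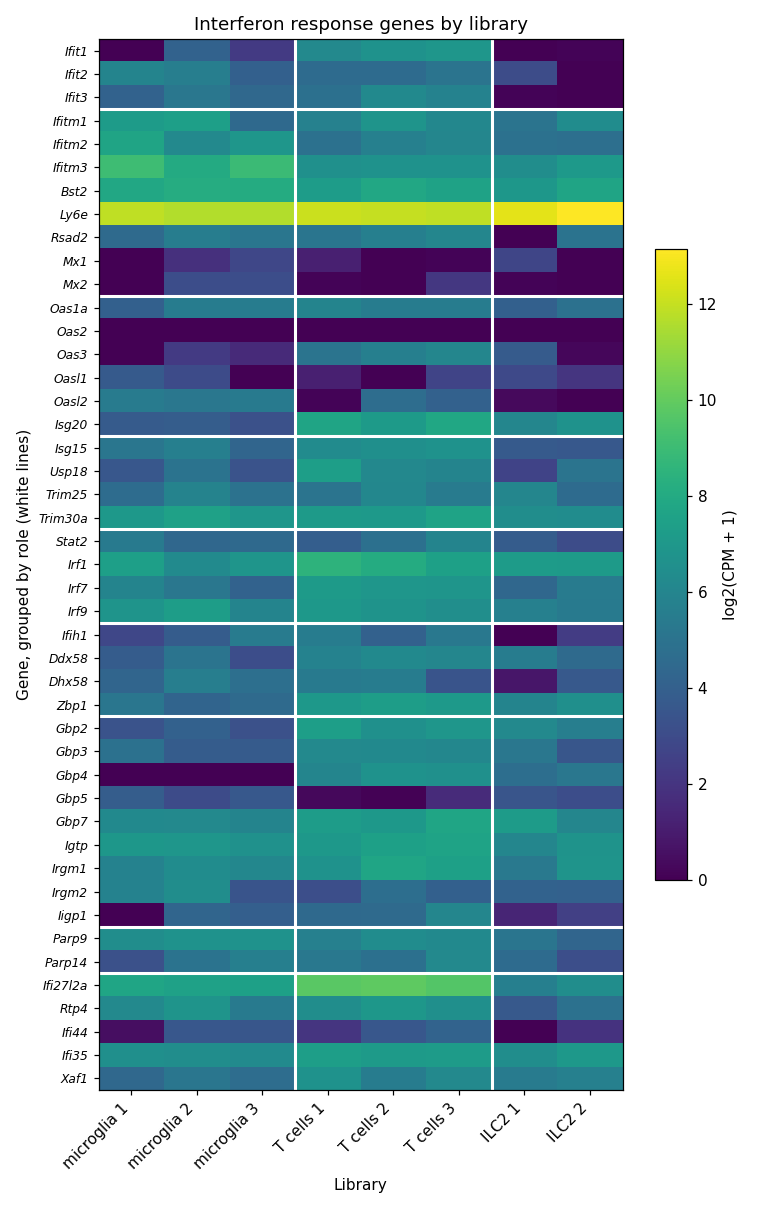
Level of each of the 45 interferon response genes (rows, grouped by role) in each of the 8 libraries (columns), coloured by log2(CPM + 1). The Gbp4 row is empty in the 3 microglia libraries, Ifit1 and Ifit3 are at or near 0 in both ILC2 libraries, and Ly6e is high in all 8.

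Each pair of populations was compared with edgeR's quasi-likelihood test over the 13000 genes whose mean count reached 10. A call required an adjusted p (Benjamini-Hochberg) under 0.05 together with a log2 fold change of 1 or more in size. Of the 44 members tested, 12 were called in at least 1 comparison, 7 of them in more than 1, and 33 of the 45 in none. These totals over comparisons were not counted for all genes tested, so only the counts by comparison have a share beside them. In ILC2 against T cells, no member was called higher (0.431% of all genes tested were) and 3 were called lower (0.492% of all genes were): Ifit3, Ifi27l2a and Isg15. In ILC2 against microglia, 5 were called higher (4.99% of all genes) and 6 lower (4.76%). In T cells against microglia, 5 were called higher (5.91% of all genes) and 1 lower (7.13%). Leaving out 1 library moved some of these counts: in ILC2 against microglia, 3 were called higher without microglia library 2 or 3 or ILC2 library 2, and 3 lower without microglia library 3 or ILC2 library 1. Over all genes tested, those counts were 516, 493 and 342 higher (649 in the main fit) and 437 and 402 lower (619). In T cells against microglia, 8 were called higher without microglia library 1, and 10 and 9 without ILC2 libraries 1 and 2. Over all genes tested, these were 616, 803 and 753 (768 in the main fit). Microglia library 2 had the lowest sum of neutrophil markers, though Retnlg was lowest in library 3 (1519 CPM, against 2514 and 1739 CPM in libraries 1 and 2). It was also used as the only microglia library, a setting chosen after the data were seen. With 1 library in that group, fewer of all genes tested were called against microglia as well. Of the 11 calls in ILC2 against microglia, those of Gbp4 and Ifit3 remained in that setting. The comparisons share libraries, so each is described on its own values. The median log2 fold change of the members was -1.21 in ILC2 against T cells, -0.72 in ILC2 against microglia and 0.54 in T cells against microglia, where the medians of all genes tested were 0, -0.01 and 0.00.

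Library positions were also compared, without a test. The ILC2 libraries lay entirely below the T cell libraries for 28 of the 44 members (11.8% of all genes tested did so) and entirely above for Ly6e and Gbp5 (13.4%). Both ILC2 libraries lay below all microglia libraries for 15 members (21.1% of all genes) and above for 6 (21.9%). The T cell libraries lay above the microglia libraries for 20 members (18.4% of all genes) and below for 6 (18.7%). At an unadjusted p under 0.05, 17 members were lower and 1 was higher in ILC2 than in T cells, against 580 and 641 of the 13000 genes. The count of members called higher in T cells than in microglia depended on the test. It was 5 in the main fit, 14 with DESeq2 or limma-voom and 16 with the newer edgeR quasi-likelihood method. Calls over all genes tested rose as well, from 768 in the main fit to 1090 with DESeq2, 1063 with limma-voom and 1142 with the newer method.

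**Figure D2:**
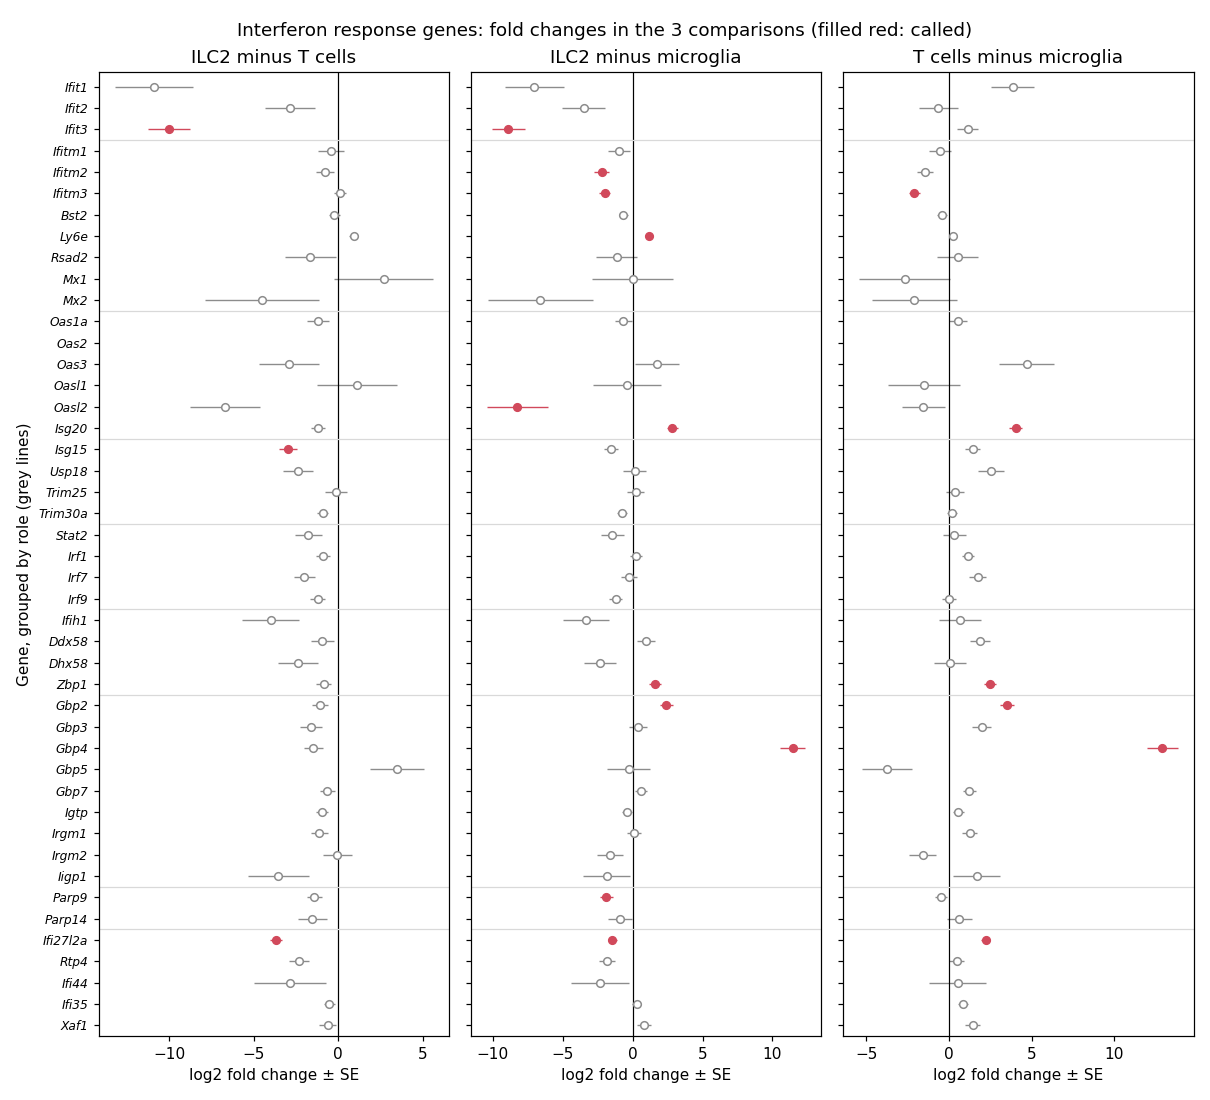
Log2 fold change of each member in the 3 comparisons (points, with lines for the standard error), grouped by role, with filled points for called members. In ILC2 against T cells 39 of the 44 points lie below 0, and in T cells against microglia 31 lie above 0.

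The promoters of 5 members are shown, chosen because they hold ISRE copies before the start and because the genes have different orders of level among the populations. A promoter sequence was found for 32 of the 45 members in RefSeq (GRCm38.p6). None was found for Dhx58, Gbp4, Ifi27l2a, Iigp1, Ly6e, Mx1, Mx2, Oas2, Parp9, Parp14, Rtp4, Usp18 or Zbp1. In the window from 250 bases before to 50 bases after the start, the ISRE letters GAAANNGAAA, on either strand, occurred in 20 of the 32 members (62.5%) and in 3.99% of 27025 genes. The GAS letters TTCNNNGAA occurred in 11 of the 32 (34.4%) and in 9.55% of all genes, and matches of the 2 motifs overlapped in 2 of the members' windows. The 200 bases before the start are printed 5′ to 3′ on the strand of the gene, with ISRE matches in capitals. Ifit1 and Ifit3, from 1 cluster of genes on chromosome 19, were close to 0 in ILC2, and Isg15 was called lower in ILC2 than in T cells. Gbp2 was called higher in both lymphocyte populations than in microglia, and Ifitm2 was called lower in ILC2 than in microglia.
Ifit1, chr19:34640689-34640888, plus strand: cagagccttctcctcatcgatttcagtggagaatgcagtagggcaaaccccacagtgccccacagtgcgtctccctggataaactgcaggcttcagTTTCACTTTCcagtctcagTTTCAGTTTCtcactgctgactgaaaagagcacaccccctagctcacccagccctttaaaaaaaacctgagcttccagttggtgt
Ifit3, chr19:34583329-34583528, plus strand: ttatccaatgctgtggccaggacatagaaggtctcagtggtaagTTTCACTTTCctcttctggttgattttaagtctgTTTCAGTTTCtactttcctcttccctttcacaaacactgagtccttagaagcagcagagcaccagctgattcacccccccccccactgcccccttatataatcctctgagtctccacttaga
Isg15, chr4:156200819-156201018, minus strand: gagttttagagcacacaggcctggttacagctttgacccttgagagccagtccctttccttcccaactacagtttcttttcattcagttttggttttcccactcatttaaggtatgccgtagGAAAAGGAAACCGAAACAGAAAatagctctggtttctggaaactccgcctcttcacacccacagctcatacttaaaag
Gbp2, chr3:142620463-142620662, plus strand: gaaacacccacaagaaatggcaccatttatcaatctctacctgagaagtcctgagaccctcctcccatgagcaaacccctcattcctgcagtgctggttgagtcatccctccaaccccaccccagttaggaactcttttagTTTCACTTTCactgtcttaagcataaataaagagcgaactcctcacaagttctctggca
Ifitm2, chr7:140955962-140956161, minus strand: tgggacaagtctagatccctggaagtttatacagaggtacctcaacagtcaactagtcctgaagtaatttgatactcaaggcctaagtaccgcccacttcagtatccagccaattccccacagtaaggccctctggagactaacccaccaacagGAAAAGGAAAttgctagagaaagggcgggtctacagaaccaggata
The matches begin 104 and 85 bases before the start in Ifit1, 156 and 122 bases before it in Ifit3, 59 bases before it in Gbp2 and 46 bases before it in Ifitm2. Isg15 has 3 overlapping matches that begin 78, 72 and 66 bases before the start. Of these 5 genes, Ifitm2 had its highest mean in microglia and the others in T cells. That mix was fixed by how the 5 were chosen, so nothing about ISRE follows from it. Of the other called members with a promoter sequence, Ifitm3 had 2 ISRE matches, both after the start, and neither Isg20 nor Oasl2 had one in this window.

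Among the ligands, 9 of the 10 listed interferon genes, Ifnb1 and 4 Ifna genes among them, had no count in any library. The exception was Ifng, the gene of interferon gamma. It was at 467, 261 and 187 CPM in the T cell libraries, at 6.17, 0 and 0 CPM in microglia and at 4.44 and 0 CPM in ILC2. All T cell libraries thus lay far above the others, and Ifng was called higher in T cells than in microglia (log2 fold change 7.21 ± 1.82 SE, adjusted p = 0.0286, edgeR). The fitted difference was 14.74 without microglia library 1, which held all the microglial counts. The call was lost without microglia library 2 or 3 or T cell library 1 or 2 (adjusted p 0.0561 to 0.0718) and with DESeq2 (0.0544), and ILC2 against T cells was not called (adjusted p = 0.264).

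The receptors were highest in microglia. Ifnar1 was at 81.1 ± 27.8 CPM (SD, n = 3) in microglia, 42.6 ± 12.8 CPM (n = 3) in T cells and 48.6 ± 19.4 CPM (n = 2) in ILC2, with no call. Ifnar2 was at 408 ± 94.998, 122 ± 31.8 and 112 ± 32.1 CPM, and was called lower than in microglia in T cells (log2 -1.75 ± 0.33 SE, adjusted p = 0.00724, edgeR) and in ILC2 (-1.86 ± 0.38, adjusted p = 0.0138, or 0.0892 without ILC2 library 1 and 0.0629 with library 2 as the only microglia library). Ifngr1, the ligand-binding chain for interferon gamma, was at 1542, 1722 and 1225 CPM in microglia, 1254, 1016 and 1058 CPM in T cells and 271 and 310 CPM in ILC2. Both ILC2 libraries were thus far below all others, and the gene was called lower in ILC2 than in T cells (log2 -1.93 ± 0.28, adjusted p = 0.0137) and than in microglia (-2.36 ± 0.29, adjusted p = 0.000949). The first of these calls was lost without either ILC2 library (adjusted p 0.0595 and 0.0809). Ifngr2, the signalling chain, was at 214, 248.7 and 321 CPM in microglia, 1.41, 0.896 and 21.7 CPM in T cells and 37.0 and 36.2 CPM in ILC2. T cells were lowest for it, with T cell library 3 well above the other T cell libraries, and T cells against microglia was called (log2 -5.03 ± 1.095 SE, adjusted p = 0.0149, and -7.77 without T cell library 3). That call was lost with library 2 as the only microglia library (adjusted p = 0.0949).

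Of all 66 listed pathway genes that are not members, 56 were tested: ILC2 against T cells gave 1 call higher and 2 lower, where 0.431% and 0.492% of all genes tested were called. There were 5 higher and 9 lower in ILC2 than in microglia (4.99% and 4.76% of all genes), and 11 higher and 10 lower in T cells than in microglia (5.91% and 7.13%). The largest changes beyond those above went both ways. Ikbke, a kinase that activates interferon regulatory factors, had 1 count over all microglia libraries and 60.2 ± 29.7 CPM in T cells, a ratio of 1783 with a 95% counting interval of 320 to 70432. Ifi203, a DNA-binding interferon-inducible protein, was at 184 ± 63.3 CPM in T cells and 66.6 ± 19.8 CPM in ILC2 against 6.34 ± 3.08 CPM in microglia. Nlrc5, an activator of MHC class I genes, was at 66.1 ± 16.1 CPM in T cells and 1.18 ± 2.05 CPM in microglia, a call lost without any T cell library or microglia library 1 or 2 (adjusted p 0.0686 to 0.0866).

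Genes of the pathway that were called higher in microglia included receptors for nucleic acids and myeloid factors. Tlr7, a sensor of single-stranded RNA, was at 297 ± 28.3 CPM in microglia, 4.93 ± 3.17 CPM in T cells and 0.646 ± 0.914 CPM in ILC2. Tlr9, a sensor of DNA, was at 14.8 ± 5.18 CPM in microglia and had no count in T cells, at least 53.4-fold lower, though the call was lost without any 1 of the T cell or microglia libraries (adjusted p 0.0622 to 0.0917). Irf8, a factor needed for microglial identity, was at 654 ± 51.7 CPM in microglia, 24.8 ± 8.73 CPM in T cells and 25.9 ± 9.96 CPM in ILC2. Irf5, which drives cytokine genes in myeloid cells, was at 350 ± 43.9, 11.5 ± 1.71 and 69.7 ± 29.7 CPM, and every pair of populations was called, though ILC2 against T cells was not with limma-voom (adjusted p = 0.0819) or in a fit of those populations alone (0.0621). ILC2 against microglia was not called for Irf5 with library 2 as the only microglia library (0.0540). Socs3, a feedback inhibitor of Jak kinases, was at 151 ± 33.4 CPM in microglia and 8.92 ± 5.55 CPM in ILC2, and this call was lost without ILC2 library 2 (adjusted p = 0.0726) and with library 2 as the only microglia library (0.0803).

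**Figure D3:**
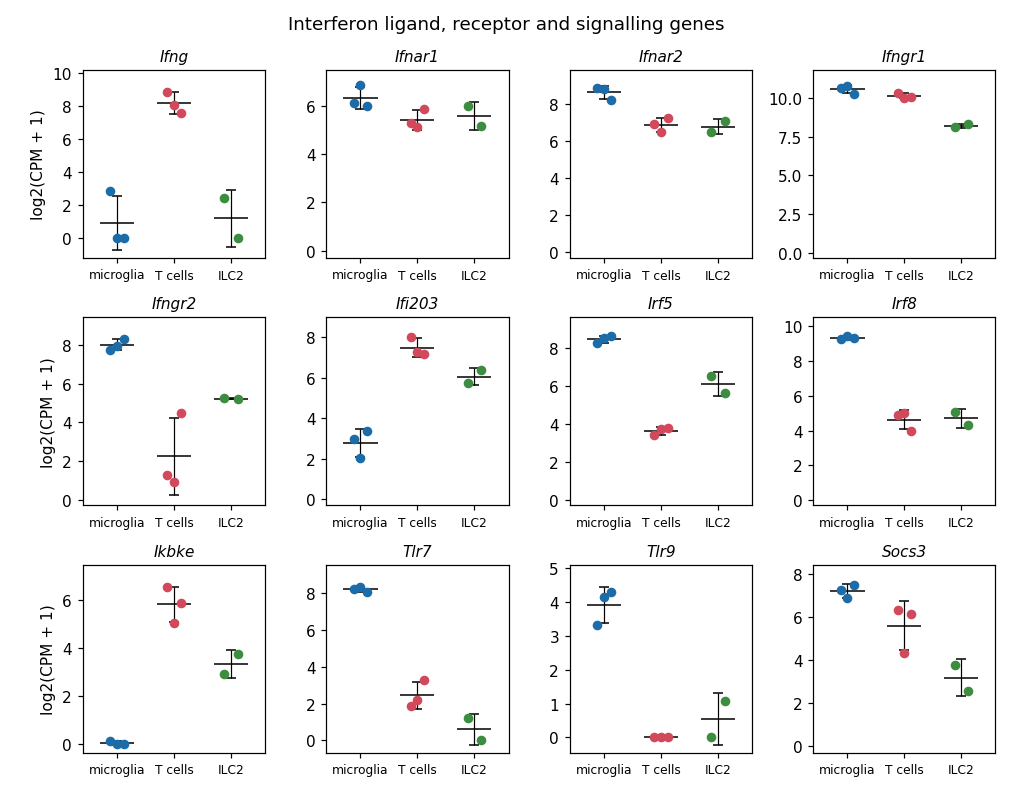
Level of 12 ligand, receptor and signalling genes in each library as log2(CPM + 1), with 1 point per library, a bar for the mean and whiskers for the SD. Ifng and Ifi203 are highest in all 3 T cell libraries, whereas Ifngr1 is lowest in both ILC2 libraries.

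Of the 4 transcription factors among the members, none was called in any comparison, and for all 4 the ILC2 libraries lay below every T cell library. Irf7, the factor that amplifies type I interferon genes, was at 142, 120 and 114 CPM in T cells, 59.7, 35.5 and 16.8 CPM in microglia and 19.6 and 42.9 CPM in ILC2. Its T cell libraries did not overlap those of the other populations, but the test in T cells against microglia just missed the threshold (log2 1.75 ± 0.51 SE, adjusted p = 0.0528, edgeR). Irf1, induced by interferon gamma through GAS, was at 361, 270 and 176 CPM in T cells, 173, 78.7 and 113 CPM in microglia and 147 and 143 CPM in ILC2. The lowest T cell library was only just above the highest microglia library. Irf9, the DNA-binding part of the type I complex, was at 110, 157 and 59.6 CPM in microglia, 128, 107 and 89.8 CPM in T cells and 52.1 and 41.2 CPM in ILC2. The means of microglia and T cells were almost the same, at 109 ± 48.9 and 109 ± 19.3 CPM. Stat2, its partner, was low throughout, with means of 27.6, 34.3 and 10.1 CPM in microglia, T cells and ILC2. Irf7 overlaps Phrf1 on the opposite strand and Irf9 overlaps Rnf31 on the same strand, and the strand setting of the counting is not given.

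The Ifit proteins bind viral RNA and block its translation, and of the 3 Ifit members Ifit3 was called lower in ILC2 than in both other populations. Ifit3, on chromosome 19 from 34583531 to 34588731 (mm10), was at 27.8, 74.8 and 55.9 CPM in T cells and 16.6, 35.8 and 21.0 CPM in microglia, and had 1 count in all, in ILC2 library 1. Every T cell and microglia library thus lay far above both ILC2 libraries. The ratio of T cells to ILC2 was 1320 with a 95% counting interval of 237 to 52133, and that of microglia to ILC2 was 611 with an interval of 110 to 24120. Both differences were called (adjusted p = 0.00915 and 0.00152, edgeR). Their fitted log2 values, -10.01 ± 1.23 and -8.89 ± 1.19, depend on the prior count, and they ran from -9.16 to -12.17 and from -8.05 to -11.02 when 1 of the ILC2 libraries was left out.

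Ifit1, in the same cluster from 34640871 to 34650009, was at 72.1, 102 and 118 CPM in T cells, at 0, 16.4 and 3.75 CPM in microglia and had 1 count in ILC2. The T cell libraries were all above the others, and the microglia libraries were uneven, with microglia library 1 at 0. No comparison of Ifit1 was called (adjusted p 0.0692 to 0.0835), although ILC2 against T cells had the largest ratio of all members, 2437 with an interval of 437 to 96256. That comparison was called with DESeq2, limma-voom, the newer quasi-likelihood method, no filter on low counts and the libraries of those populations alone. Ifit2, from 34550694 to 34576419, was at 59.6, 47.7 and 15.6 CPM in microglia, 22.9, 23.0 and 32.5 CPM in T cells and 7.19 and 0 CPM in ILC2. Both ILC2 libraries were lowest, without a call (adjusted p = 0.202 against microglia and 0.620 against T cells). Reads shared between the similar Ifit genes may be split among them in a way the counts do not show.

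Among the 8 members that act at membranes or on virions, 1 was called higher and 2 lower in ILC2 than in microglia, and 1 lower in T cells than in microglia. Ifitm3, which blocks fusion of viruses in endosomes and lies on chromosome 7 from 141009586 to 141010770, was at 540, 265 and 504 CPM in microglia, 95.9, 102 and 104 CPM in T cells and 85.5 and 131 CPM in ILC2. All microglia libraries lay above all lymphocyte libraries, and microglia library 2 was the lowest of the microglia. Ifitm3 was called lower in T cells (log2 -2.12 ± 0.34 SE, adjusted p = 0.00296, edgeR) and in ILC2 (-2.01 ± 0.39, adjusted p = 0.0110, or 0.0803 without ILC2 library 1) than in microglia. Ifitm2, from 140954837 to 140955987, was at 207, 71.9 and 119 CPM in microglia, 28.4, 52.0 and 63.9 CPM in T cells and 29.5 and 27.1 CPM in ILC2. The order of its microglia libraries put library 2 lowest again. It was called lower in ILC2 than in microglia (-2.23 ± 0.57, adjusted p = 0.0367), a call lost without microglia library 1 or 3 or either ILC2 library (adjusted p 0.0690 to 0.188). The summed neutrophil markers were also lowest in microglia library 2, at 10345 CPM against 56395 and 69956 CPM, though Retnlg alone was lowest in library 3. Of the listed monocyte and border macrophage markers, Ly6c2 (525, 200.5 and 523 CPM) and Ccr2 (84.3, 6.72 and 39.9 CPM) were lowest in library 2 too. Mrc1 was lowest in library 3, and Cd163 and Lyve1 in library 1. Ifitm1 was highest in library 2. A link between these levels was not tested. With library 2 as the only microglia library the log2 difference of Ifitm3 was -1.40 in T cells (adjusted p = 0.101) and -1.29 in ILC2 (adjusted p = 0.171), and that of Ifitm2 in ILC2 was -1.35 (adjusted p = 0.335).

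Ly6e, an anchored surface protein that restricts virus fusion and lies on chromosome 15 from 74955051 to 74959905, was the most abundant member by CPM in every library. It was at 6169 and 9072 CPM in ILC2, 4309, 4106 and 3783 CPM in T cells and 3793, 3181 and 3187 CPM in microglia. Both ILC2 libraries were above all others, and ILC2 library 2 was well above library 1. Ly6e was called higher in ILC2 than in microglia (log2 1.17 ± 0.25 SE, adjusted p = 0.0183, edgeR), a call lost without microglia library 2 or 3 or ILC2 library 2 (adjusted p 0.0609 to 0.0925). Against T cells the difference was 0.91 ± 0.25 (adjusted p = 0.206). Bst2, which tethers budding virions to the cell surface, was at 237, 277 and 267 CPM in microglia, 154, 232 and 186 CPM in T cells and 121 and 207 CPM in ILC2. Microglia libraries were highest by a small margin, and none of its comparisons was called. Ifitm1 was at 146, 170 and 21.5 CPM in microglia, 53.6, 111 and 66.2 CPM in T cells and 32.4 and 82.9 CPM in ILC2, and its libraries overlapped in each comparison. Rsad2, which makes a chain-terminating nucleotide, was at 22.3, 46.3 and 34.6 CPM in microglia, 33.1, 50.5 and 63.9 CPM in T cells and at 0 and 31.5 CPM in ILC2. The ILC2 libraries therefore disagreed on Rsad2. Mx1 and Mx2, of a family of dynamin-like GTPases, had means of at most 5.01 CPM in every population. The gene annotation lists Mx2 as a polymorphic pseudogene, and whether either gene makes a working protein in these mice was not examined.

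Of the 6 members in the group of oligoadenylate synthetases and RNA degradation, Isg20 and Oasl2 were called, Oas1a, Oas3 and Oasl1 were not, and Oas2 had no count. Isg20, an exonuclease of single-stranded RNA on chromosome 7 from 78913424 to 78920396, was at 207, 144 and 224 CPM in T cells, 64.0 and 103 CPM in ILC2 and 12.6, 13.8 and 8.65 CPM in microglia. The order T cells, ILC2, microglia held without overlap between libraries. Isg20 was called higher than in microglia in T cells (log2 4.03 ± 0.40 SE, adjusted p = 0.000223, edgeR) and in ILC2 (2.84 ± 0.40, adjusted p = 0.00200), and the difference between ILC2 and T cells was not called (-1.19 ± 0.41, adjusted p = 0.356). With library 2 as the only microglia library the ILC2 call was lost (adjusted p = 0.0567). Oasl2, a protein similar to the oligoadenylate synthetases on chromosome 5 from 114896936 to 114912234, was at 43.8, 35.7 and 41.9 CPM in microglia, 0.109, 24.7 and 16.04 CPM in T cells and 0.242 and 0 CPM in ILC2. The T cell libraries were uneven, with T cell library 1 near 0. ILC2 held 3 counts of Oasl2 in all, and the ratio of microglia to ILC2 was 337 with an interval of 115 to 1634 (adjusted p = 0.0418). The call was lost without any 1 of the microglia or ILC2 libraries or T cell library 3 (adjusted p 0.0558 to 0.214).

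Oas1a, a synthetase of the activator of RNase L, was at 60.4, 45.6 and 45.4 CPM in T cells, 15.3, 45.2 and 44.6 CPM in microglia and 15.4 and 28.9 CPM in ILC2. T cell libraries were highest by a small margin, since microglia libraries 2 and 3 came within 1 CPM of them. Oas3 was at 32.2, 49.4 and 64.2 CPM in T cells, 0, 3.66 and 1.98 CPM in microglia and 12.8 and 0.159 CPM in ILC2. T cells were above both other populations, with adjusted p = 0.0931 against microglia and 0.698 against ILC2. Oasl1 was at 12.1, 6.92 and 0 CPM in microglia, 1.19, 0 and 5.48 CPM in T cells and 6.54 and 3.01 CPM in ILC2. These values overlapped throughout.

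Isg15, the ubiquitin-like protein attached to other proteins after interferon, lies on chromosome 4 from 156199424 to 156200818. It was at 81.5, 92.6 and 103 CPM in T cells, 34.5, 49.6 and 18.9 CPM in microglia and 12.4 and 11.2 CPM in ILC2. The populations did not overlap, with T cells highest and ILC2 lowest. Isg15 was called lower in ILC2 than in T cells (log2 -2.97 ± 0.56 SE, adjusted p = 0.0427, edgeR), at the edge of the threshold: leaving out microglia library 1 or any T cell or ILC2 library ended the call (adjusted p 0.0633 to 0.230), as did limma-voom (0.0508). The other differences of Isg15 were -1.54 ± 0.52 in ILC2 against microglia (adjusted p = 0.0994) and 1.43 ± 0.45 in T cells against microglia (adjusted p = 0.0644). Usp18, which removes Isg15 and damps signalling at Ifnar2, was at 162, 70.0 and 60.7 CPM in T cells, 11.02, 30.6 and 9.28 CPM in microglia and 5.17 and 32.4 CPM in ILC2. All T cell libraries were above the rest, and T cell library 1 stood apart from the other T cell libraries (log2 2.52 ± 0.79 against microglia, adjusted p = 0.0642). Trim30a was at 145, 138 and 196 CPM in T cells, 130, 182 and 117 CPM in microglia and 85.7 and 82.5 CPM in ILC2. Trim25, a ubiquitin ligase that acts with the RNA sensor Ddx58, was at 32.3, 68.1 and 43.1 CPM in T cells, 23.9, 57.8 and 30.5 CPM in microglia and 63.7 and 23.5 CPM in ILC2. Trim30a was lowest in both ILC2 libraries, whereas Trim25 did not separate the populations.

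Of the 4 nucleic acid sensors, only Zbp1 was called in these comparisons. Zbp1, which senses Z-form nucleic acid and can trigger necroptosis, lies on chromosome 2 from 173206612 to 173218923. It was at 127, 158 and 133 CPM in T cells, 60.8 and 92.1 CPM in ILC2 and 35.2, 17.9 and 22.1 CPM in microglia. The libraries of the 3 populations did not overlap. Zbp1 was called higher than in microglia in T cells (log2 2.47 ± 0.39 SE, adjusted p = 0.00277, edgeR) and in ILC2 (1.61 ± 0.41, adjusted p = 0.0366). The ILC2 call was lost without microglia library 2 or 3, any T cell library or ILC2 library 2 (adjusted p 0.0530 to 0.202), and in a fit of those populations alone (0.0931). Ddx58, the gene of the RNA sensor RIG-I, was at 55.6, 74.8 and 63.8 CPM in T cells, 44.6 and 22.4 CPM in ILC2 and 12.9, 32.1 and 7.51 CPM in microglia. Its T cell libraries were the highest (log2 1.89 ± 0.61 against microglia, adjusted p = 0.0726). Ifih1, the sensor of long double-stranded RNA, was at 44.5, 16.1 and 37.9 CPM in T cells, 5.96, 13.3 and 42.9 CPM in microglia and 0 and 4.12 CPM in ILC2. Dhx58, a regulator of both, was at 41.3, 44.8 and 9.76 CPM in T cells, 18.3, 48.1 and 26.9 CPM in microglia and 0.727 and 11.6 CPM in ILC2. For Ifih1 both ILC2 libraries were below all others, while for Dhx58 ILC2 library 2 lay above the lowest T cell library.

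The 9 interferon-inducible GTPases, which coat and disrupt the vacuoles of intracellular microbes, included 2 members called higher in both lymphocyte populations than in microglia. Gbp4, on chromosome 5 from 105115767 to 105139586, had no count in microglia and was at 61.6, 101 and 96.4 CPM in T cells and 26.2 and 36.6 CPM in ILC2. Against a floor of 3 counts in each microglia library it was at least 284-fold higher in T cells and at least 103-fold higher in ILC2 (adjusted p = 0.000154 and 0.000384, edgeR). Gbp4 overlaps Gbp8 and Gbp9 on the same strand, so the share of reads that could be assigned to it is uncertain. Those neighbours had counts in microglia, Gbp9 at 1.31, 38.0 and 3.65 CPM and Gbp8 at 0, 8.20 and 0 CPM. Gbp2, on chromosome 3 from 142620602 to 142638008, was at 163, 95.9 and 120 CPM in T cells, 71.3 and 48.9 CPM in ILC2 and 9.30, 15.7 and 8.65 CPM in microglia. As with Isg20, the order T cells, ILC2, microglia held without overlap. Gbp2 was called higher than in microglia in T cells (log2 3.49 ± 0.44 SE, adjusted p = 0.000781) and in ILC2 (2.42 ± 0.45, adjusted p = 0.00843, or 0.143 with library 2 as the only microglia library).

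The other GTPases were not called. Igtp was at 127, 174 and 199 CPM in T cells, 122, 117 and 99.3 CPM in microglia and 65.5 and 106 CPM in ILC2. Gbp7 was at 154, 127 and 209 CPM in T cells, 75.0, 73.0 and 60.5 CPM in microglia and 146 and 64.5 CPM in ILC2. Irgm1 was at 104, 211 and 175 CPM in T cells, 55.7, 83.6 and 68.1 CPM in microglia and 39.5 and 111 CPM in ILC2. For all 3 the T cell libraries lay above the microglia libraries, and for Gbp7 and Irgm1 the ILC2 libraries spanned the range between them. Gbp3 had the smallest adjusted p of the uncalled GTPases in T cells against microglia (log2 1.97 ± 0.59 SE, adjusted p = 0.0541). Gbp5 ran the other way: it was at 14.0, 7.02 and 11.4 CPM in microglia and 10.02 and 7.69 CPM in ILC2, against 0.217, 0.0689 and 2.09 CPM in T cells. The T cell libraries were lowest without overlap, and neither ILC2 (adjusted p = 0.543) nor microglia (adjusted p = 0.143) was called against them. Among the microglia libraries Iigp1 ranged from 0 to 18.8 CPM and Irgm2 from 9.59 to 86.2 CPM. Igtp and Irgm2 overlap on the same strand, and both families hold near-identical copies, so their single values are uncertain.

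Parp9, an ADP-ribosyltransferase that works with the ubiquitin ligase Dtx3l, lies on chromosome 16 from 35938470 to 35972605. It was at 85.6, 103 and 102 CPM in microglia, 51.9, 82.0 and 74.5 CPM in T cells and 33.6 and 18.6 CPM in ILC2. The order microglia, T cells, ILC2 held without overlap. Parp9 was called lower in ILC2 than in microglia (log2 -1.89 ± 0.45 SE, adjusted p = 0.0268, edgeR), a call lost without microglia library 2 or 3 or ILC2 library 2 (adjusted p 0.0632 to 0.150). It overlaps Dtx3l, which is on the opposite strand. Parp14, its antagonist in macrophages, was at 8.69, 31.2 and 49.3 CPM in microglia, 37.0, 27.4 and 72.7 CPM in T cells and 23.6 and 8.09 CPM in ILC2, with no call.

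Ifi27l2a, a small hydrophobic membrane protein whose gene lies on chromosome 12 from 103442167 to 103443680, was the 1 member called in all 3 comparisons. It was at 892, 930 and 789 CPM in T cells, 208, 182 and 175 CPM in microglia and 51.0 and 87.0 CPM in ILC2. The spread within each population was small beside the gaps between them. Ifi27l2a was called higher in T cells than in microglia (log2 2.21 ± 0.28 SE, adjusted p = 0.000773, edgeR) and, in ILC2, lower than in T cells (adjusted p = 0.00225). In ILC2 against microglia the difference was -1.45 ± 0.31 (adjusted p = 0.0178), a call lost without ILC2 library 1 (adjusted p = 0.0967) and in a fit of those populations alone (0.0620).

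**Figure D4:**
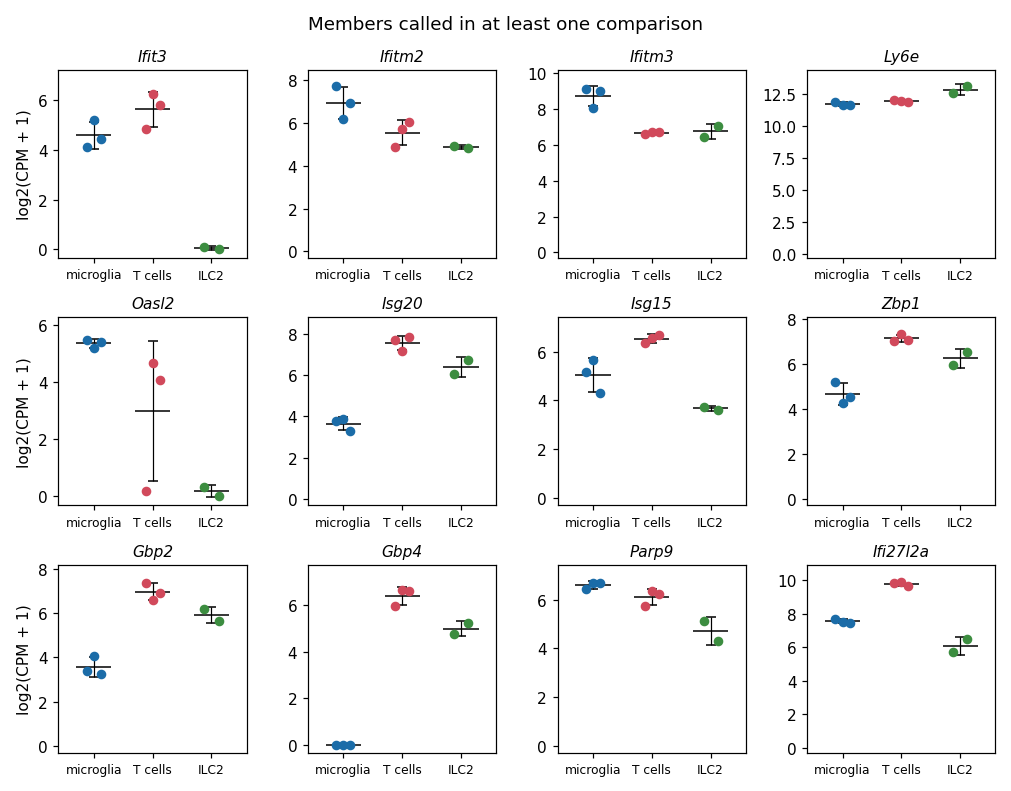
Level of the 12 members called in at least 1 comparison, in each library as log2(CPM + 1), with 1 point per library, a bar for the mean and whiskers for the SD. Gbp4, Gbp2, Isg20 and Zbp1 are lowest in microglia, Ifitm2 and Ifitm3 are highest there, and Ifit3, Isg15 and Ifi27l2a are lowest in ILC2.

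The remaining induced genes were not called. Ifi35 was at 162, 143 and 148 CPM in T cells, 92.2, 84.8 and 78.4 CPM in microglia and 85.0 and 126 CPM in ILC2. Rtp4, a chaperone of membrane receptors with antiviral activity, was at 85.9, 125 and 92.7 CPM in T cells, 72.2, 109 and 41.0 CPM in microglia and 11.9 and 28.9 CPM in ILC2. Both ILC2 libraries of Rtp4 were below all others (log2 -2.31 ± 0.58 SE against T cells, adjusted p = 0.143, and -1.86 ± 0.57 against microglia, adjusted p = 0.0726, edgeR), and both differences were called with DESeq2 and with the newer quasi-likelihood method. Rtp4 overlaps Masp1 on the opposite strand. Xaf1, an inhibitor of the anti-apoptotic protein Xiap, was at 102, 45.5 and 71.7 CPM in T cells, 20.4, 34.8 and 25.4 CPM in microglia and 42.9 and 52.4 CPM in ILC2. Its microglia libraries were lowest (log2 1.44 ± 0.45 in T cells, adjusted p = 0.0644). Ifi44 was low, with means of 7.23, 10.3 and 1.43 CPM in microglia, T cells and ILC2.

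Within a population the members did not all move together from library to library, though microglia library 2 was higher for most. The median over members of log2(CPM + 1) minus the population mean was 0, 0.36 and -0.095 in microglia libraries 1, 2 and 3. T cell libraries 1, 2 and 3 were the highest of their population for 11, 15 and 18 members. Microglia library 2 was the highest of its population for 24 members and library 3 for 3, yet microglia library 1, with no count of Ifit1, Mx1, Mx2, Oas3 or Iigp1, was the highest for 16. In ILC2 each library was the higher one for 22 members. Single low genes were present in 1 ILC2 library and near 0 in the other, as with Rsad2, Oas3 and Ifit2. The 8 libraries each detected 38 to 44 of the 45 members.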

How the data were processed

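The authors deposited 1 table of raw read counts per gene, whole numbers although its title calls them normalized. Per the submitters' processing notes, STAR 2.5.3a, DESeq2 1.1, Cufflinks 2.0, FastQC 1.0.0 and bcl2fastq 2.20.0.422 were used with build mm10. Their roles, the counting program, the annotation and the strand setting are not given in the sources used here. The labels name 3 ILC2 samples, while the table has 2 columns headed ILC2 and 1 headed ILC1. No label names ILC1, so that column was not used, whichever sample it holds, and ILC2 rests on 2 libraries. Rows left out were reads in no gene (53.8% to 61.0% of the reads counted), ambiguous reads (0.338% to 1.23%) and 27 rows whose symbols had become dates (0.0425% to 0.102%).

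The counts were tested with edgeR 4.0.16 (quasi-likelihood, legacy method, TMM scaling, R 4.3.3) on the 13000 genes whose mean count reached 10, in 1 fit of 8 libraries and 3 populations. P-values were adjusted by Benjamini-Hochberg over all 13000 genes. The steps were tested on simulated data. Fold changes carry standard errors (SE), and levels carry standard deviations (SD) over libraries. Counting intervals are exact at 95% and, like the floor of 3 counts per library, cover counting error only. Coordinates and exon lengths are from GENCODE vM21 (mm10). In the table, 8 members overlap another counted gene. Alternatives were DESeq2 1.42.0, limma-voom (limma 3.58.1), the newer edgeR method, DESeq2-type scaling, no filter, fits of only the populations compared, each library left out, and microglia libraries 1 and 3 left out together, the last chosen after the data were seen.

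The members and lists were chosen with earlier results of these data known. Values per library are given for every called member and for up to 3 uncalled members of each role with the highest mean level, and a few others were named after their values were seen. Of the pathway genes, Ifng, the interferon receptors and the 8 called genes with the largest fold changes are named, and 1 further gene is not reported here.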

Additional observations from a re-analysis of the deposited data

How the results depend on the processing

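The direction of every called difference was kept in all 15 settings tried. Of the 20 calls on member genes, 9 held in every setting and 11 were lost in at least 1. For members lower in ILC2 than in T cells, the count of 3 became 6 with DESeq2 and 5 with the newer quasi-likelihood method, and 2 to 4 with 1 library left out. Over all genes tested, the count of 64 became 288, 156 and 35 to 73 in these settings. No member was called higher in ILC2 than in T cells in any setting, where 18 to 238 of all genes tested were. For members higher in ILC2 than in microglia, the count of 5 became 1 with microglia library 2 as the only microglia library and 3 to 5 with 1 library left out. For members lower in ILC2 than in microglia, the count of 6 became 10 with DESeq2, 2 with microglia library 2 alone and 3 to 6 with 1 library left out. For members higher in T cells than in microglia, the count of 5 became 9 without the filter, 14 with DESeq2, 14 with limma-voom, 16 with the newer method, 10 in a fit of those populations only and 5 to 10 with 1 library left out. For members lower in T cells than in microglia, the count of 1 became 2 without the filter, 3 with DESeq2, 2 with limma-voom, 3 with the newer method and 0 with microglia library 2 alone. The genes that DESeq2 added in T cells against microglia were Ddx58, Gbp3, Gbp7, Ifit1, Irf7, Isg15, Oas3, Usp18 and Xaf1 on the higher side and Gbp5 and Ifitm2 on the lower side. Counts over all genes tested moved too, though by little in some settings. In ILC2 against microglia, 649 higher and 619 lower became 949 and 1380 with DESeq2. With 1 library left out they were 342 to 584 and 369 to 714. In T cells against microglia, 768 higher and 927 lower became 1090 and 1611 with DESeq2. Without the filter they were 787 and 1141 of 16543 genes, and in a fit of those populations only they were 746 and 989. They were 1063 and 1470 with limma-voom, 1142 and 1582 with the newer method, and 472 to 803 and 591 to 959 with 1 library left out. With library 2 as the only microglia library, fewer of all genes tested were called against microglia as well. The cause of these changes was not tested. No paired analysis was possible because the columns carry no replicate numbers, although the sample titles share the numbers 1 to 3 across populations, and the labels do not say what those numbers stand for. Where 1 library stood for a population, it was assumed to vary like the others. ILC2 had 2 libraries, so single low genes there are limited by number, and by depth as in the other populations.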
